A study of Homo sapiens with 12 samples.

Results

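The comparison set the response of MDA-MB-231 cells to a6 against their response to SAHA, gene by gene, over the 15255 genes present in both of the authors' deposited tables, out of the 18534 genes listed in either. For each gene the log2 fold change with SAHA was subtracted from the log2 fold change with a6, and the errors of both were combined. MDA-MB-231 is an established cell line from a human triple-negative breast cancer. Cells received DMSO (Ctrl), SAHA at 2.5 µM or a6 at 2.5 µM for 48 h, with 3 libraries in each group, and the labels name no genetic change. The series also holds 3 libraries of a further compound, which do not enter here. The labels name them as biological replicates without saying whether cultures were separate, and p-values therefore measure the spread between these libraries, which may be partly technical. Of markers in the deposited tables, EPCAM of epithelial cells had a Ctrl level of 172 normalized counts, and ESR1 and PGR, the oestrogen and progesterone receptors, were not listed in the SAHA table.

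SAHA (vorinostat) inhibits histone deacetylases (HDACs), enzymes that take acetyl groups off histones and other proteins. In tumour cells such inhibitors are known to slow the cell cycle and to turn on genes that the cell normally keeps silent, including genes of other tissues. The labels describe a6 as acting on HDACs and on G-quadruplexes (G4s), which are 4-stranded structures of guanine-rich DNA or RNA that are common near gene starts. Comparing both at the same dose and time asks what a6 did that SAHA did not, and the reverse. HDAC activity was not measured in the files used here.

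The files give 1 fold change per gene and compound and no value per library, so levels below are group means. They were computed from the authors' deposited tables as normalized counts on the scale of the SAHA table. The a6 table was normalized separately, and its Ctrl levels differed from those of the SAHA table by a median of -0.03 on the log2 scale, with a standard deviation of 0.00329 over genes. Both tables use the same 3 Ctrl libraries. The main test divided the difference by the root of the sum of both squared errors (summed-error test). This is too wide, because the Ctrl error is shared and cancels in the difference. The second test set an error correlation of 0.5 for the shared Ctrl (shared-control test). The robust spread of its statistic over all genes was 1.26, against 0.899 for the summed-error test, where unchanged genes with the right errors would give 1, so its errors may be too narrow. Counts with its statistic divided by that spread are therefore given beside it (rescaled test). This alternative was added once the data had been seen. All are two-sided z tests with Benjamini-Hochberg adjustment over all 15255 genes at an adjusted p under 0.05. The library depth is unknown here, and the median of the mean counts over these genes was 231 in the a6 table and 241 in the SAHA table.

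A small set of genes differed between a6 and SAHA, and in most of them it was SAHA, not a6, that had changed the gene in the authors' deposited tables. The summed-error test called 39 genes, 0.256% of those tested: 9 were higher with a6 (0.059%) and 30 lower (0.197%). The shared-control test called 540 genes (3.54%), of which 238 were higher with a6 (1.56%) and 302 lower (1.98%), and it kept all 39. The rescaled test called 37 higher and 77 lower, again with all 39. Counts in the gene lists below are read against these shares. Without adjustment, 848 genes (5.56%) had a p under 0.05 in the summed-error test. In the authors' DESeq2 test, 1148 of the genes in both tables passed with SAHA (7.53%; 3.87% raised and 3.65% lowered) and 89 with a6 (0.583%; 0.243% raised and 0.341% lowered). The median absolute log2 fold change over these genes was 0.33 in the authors' deposited SAHA table and 0.22 in the authors' deposited a6 table. The difference contains the SAHA change itself, so genes with a large SAHA change are the ones most easily called. Most genes that were not called were not shown to be alike: the 95% interval of the difference lay within 2-fold either way for 3868 genes (25.4%).

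**Figure D1:**
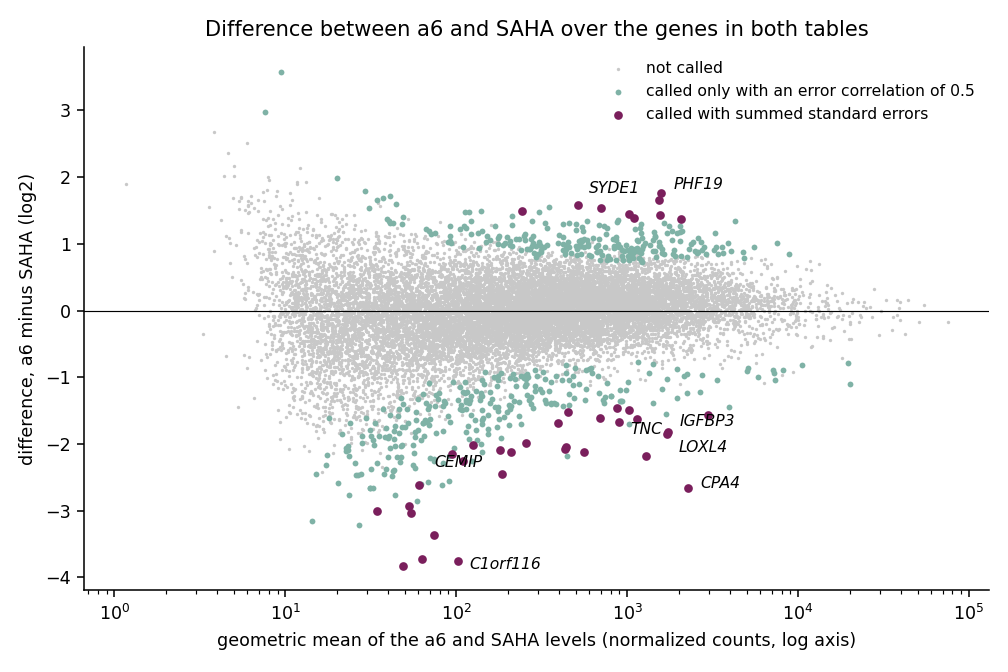
Difference between the log2 fold changes with a6 and SAHA (vertical axis, log2) against the geometric mean of the a6 and SAHA levels (horizontal log axis, normalized counts), 1 point per gene in both tables. The 39 genes called with summed standard errors lie at differences of 1.37 or more above 0 and -1.46 or less below it, and the 501 further genes of the shared-control test are drawn in green.

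The 9 genes higher with a6 shared one pattern: SAHA lowered them, and none passed with a6. Their log2 fold changes ran from -1.80 to -1.30 in the authors' deposited SAHA table, where all 9 passed, and from -0.26 to 0.10 in the authors' deposited a6 table, where none passed. The statistic was farthest from 0 for PHF19, a Polycomb-like protein that binds the histone methyltransferase complex PRC2, at chromosome 9, 120855652 to 120894896 on GRCh38. Its level was 3001 in Ctrl, 860 with SAHA and 2926 with a6, a difference of 1.77 (standard error 0.32, z test adjusted p = 1.28e-04). The SAHA group was thus the low one, and the a6 and Ctrl levels lay close together. SYDE1, a GTPase-activating protein, at chromosome 19, 15107403 to 15114988, had levels of 2533 in Ctrl, 866 with SAHA and 2718 with a6 (z test, adjusted p = 0.0017).

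Among the other genes higher with a6, 3 act on chromosomes. ESPL1, the protease separase that cuts cohesin at anaphase, had levels of 1225 in Ctrl, 410 with SAHA and 1196 with a6, and a difference of 1.54 with a standard error of 0.37. CDCA8, a subunit of the chromosomal passenger complex, stood at 1664, 678 and 1780 in the same order. RAD54L, a motor protein of homologous recombination, stood at 491, 145 and 409. The last 4 were IQGAP3, a scaffold protein of the actin cytoskeleton, JADE2, a subunit of histone acetyltransferase complexes, WTIP, a LIM domain protein, and SOGA1, with differences of 1.43, 1.44, 1.58 and 1.37. All 9 are protein-coding in GENCODE 29.

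**Figure D2:**
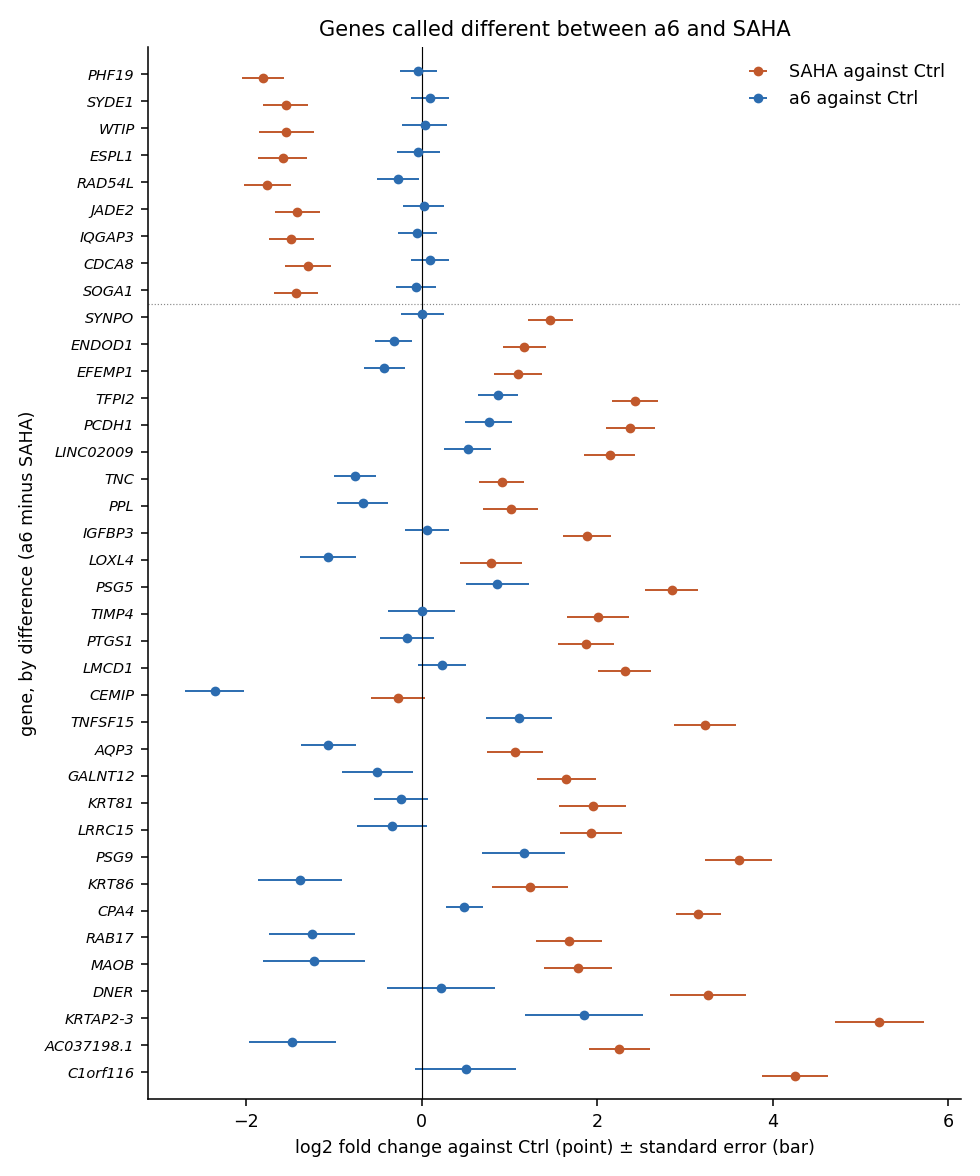
Log2 fold change against Ctrl in the authors' deposited tables (horizontal axis) with its standard error (bar) for the genes called in the summed-error test that are reported here, orange for SAHA and blue for a6. Above the dotted line the 9 genes higher with a6 have SAHA points from -1.80 to -1.30 and a6 points within 0.27 of 0. Below it most SAHA points lie above 0, and CEMIP is the one gene whose SAHA point lies below 0.

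Of the 30 genes lower with a6, 27 passed as raised in the authors' deposited SAHA table, and the other three were CEMIP, KRT86 and LOXL4. One of the 30 was raised in the authors' deposited a6 table, TFPI2, and one lowered, CEMIP. CPA4, a secreted carboxypeptidase first known as a gene turned on by HDAC inhibitors, had the smallest adjusted p. It lies at chromosome 7, 130293134 to 130324180, and its level was 645 in Ctrl, 5730 with SAHA and 904 with a6. SAHA therefore stood 6.34-fold above a6 (difference -2.67, standard error 0.33, z test adjusted p = 1.81e-11). C1orf116, an androgen-regulated gene at chromosome 1, 207018521 to 207032756, went from 19.6 in Ctrl to 374 with SAHA and 27.8 with a6. Its difference was -3.75 (standard error 0.68, z test adjusted p = 1.28e-04).

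Several of the 30 encode secreted proteins. IGFBP3, the main carrier of insulin-like growth factors in blood, had levels of 887 in Ctrl, 3273 with SAHA and 925 with a6, a difference of -1.82 with a standard error of 0.37. TFPI2, a Kunitz-type inhibitor of serine proteases, stood at 951, 5131 and 1739 in the same order. It was raised by a6 too (DESeq2 adjusted p = 0.036 in the authors' deposited a6 table), by less than with SAHA (difference -1.56). TIMP4, an inhibitor of matrix metalloproteinases, stood at 62.5, 251 and 62.5. EFEMP1, a fibulin of elastic fibres, stood at 358, 766 and 267 (difference -1.52). For these 4 genes the SAHA group was the high one. Against Ctrl, the a6 change passed for TFPI2 and not for IGFBP3, TIMP4 or EFEMP1. The log2 fold changes with a6 were 0.06 for IGFBP3 (DESeq2 adjusted p = 0.99) and -0.42 for EFEMP1 (DESeq2 adjusted p = 0.73) in the authors' deposited table.

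The other genes lower with a6 came from many functions. LMCD1, a LIM domain cofactor of transcription, had levels of 180 in Ctrl, 894 with SAHA and 211 with a6. PTGS1, the constitutive cyclooxygenase, stood at 244, 894 and 217. TNFSF15, a cytokine of the TNF family, stood at 123, 1159 and 266, and PCDH1, a protocadherin of cell contacts, at 234, 1215 and 397. SYNPO, an actin-associated protein, stood at 526, 1454 and 528. In LMCD1, PTGS1 and SYNPO the a6 level lay close to Ctrl, and in TNFSF15 and PCDH1 it lay between Ctrl and SAHA. MAOB, which breaks down monoamines, stood at 28.2, 96.9 and 12. Its level with a6 was below Ctrl, but that change did not pass in the authors' deposited table (DESeq2 adjusted p = 0.59). ENDOD1, LRRC15, GALNT12 and DNER had differences of -1.49, -2.26, -2.15 and -3.04. KRTAP2-3, a hair keratin-associated protein with close paralogs, had a difference of -3.37 from a Ctrl level of 6.37. The non-coding LINC02009 and the clone-named AC037198.1 had differences of -1.62 and -3.72.

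For AQP3 and TNC the levels with SAHA and with a6 lay on opposite sides of Ctrl. AQP3, a channel for water and glycerol, at chromosome 9, 33441154 to 33447633, had levels of 207 in Ctrl, 434 with SAHA and 99.4 with a6. Its log2 fold changes were 1.07 (adjusted p = 0.015) in the authors' deposited SAHA table and -1.06 (adjusted p = 0.083) in the authors' deposited a6 table, and the difference of -2.13 had an adjusted p of 0.0028 in the z test. TNC, the matrix glycoprotein tenascin C, at chromosome 9, 115019578 to 115118257, had levels of 844, 1588 and 498. Its a6 change was -0.76 (DESeq2 adjusted p = 0.14) in the authors' deposited a6 table. The number of genes that passed in both of the authors' deposited tables in opposite directions was 0, so the a6 change alone did not pass for either gene.

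CEMIP was lowered by a6 and not called with SAHA. It is a protein needed for the breakdown of hyaluronan, at chromosome 15, 80779343 to 80951776, and had levels of 449 in Ctrl, 373 with SAHA and 87.8 with a6. In the authors' deposited tables its log2 fold change was -2.36 with a6 (DESeq2 adjusted p = 2.56e-08) and -0.27 with SAHA (DESeq2 adjusted p = 0.74). The difference was -2.09 with a standard error of 0.46, and its adjusted p in the z test was 0.0060. LOXL4, a lysyl oxidase that cross-links collagen, had levels of 1886, 3266 and 904, and neither change passed alone in the authors' deposited tables (adjusted p of 0.18 with SAHA and 0.097 with a6).

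For a further set the change against Ctrl passed with a6 and not with SAHA. In the shared-control test, 14 of the 52 genes that a6 lowered in the authors' deposited table were also lower with a6 than with SAHA. Over all genes, 1.98% were lower in that test. The difference contains the a6 change itself, so genes lowered by a6 are more easily called lower. The 14 were chosen for naming after their values were seen. The rescaled test called 3 of the 14, CEMIP, HLA-DRA and CRISPLD2. None of the 14 passed with SAHA in the authors' deposited table, where their log2 fold changes ran from -0.50 to 0.39. COL5A1, a chain of fibrillar collagen V, had levels of 3097 in Ctrl, 3123 with SAHA and 1621 with a6. GPRC5A, an orphan receptor induced by retinoic acid, stood at 7093, 6855 and 3779. L1CAM, a neural cell adhesion molecule, stood at 2289, 2388 and 1058. In each of these the a6 level was the low one and the SAHA level lay close to Ctrl. HLA-DRA, an MHC class II chain, stood at 263, 345 and 128, and PI16, a peptidase inhibitor listed here as a fibroblast marker, at 84.7, 59.9 and 18.6. The others include CRISPLD2, FPR1, OLFML2A, ALDOC, C11orf86, CEMIP and the close paralogs ANXA8 and ANXA8L1, for which the split of reads is uncertain. Genes raised by both compounds in the authors' deposited tables and lower with a6 in the shared-control test included RGS4, a regulator of G protein signalling, at 81.6, 525 and 208, and HSD11B1, which makes active cortisol, at 17.3, 265 and 89.8. DHRS3, a retinal reductase lowered by both, was higher with a6, at 274, 48.0 and 107. Of the genes in this paragraph, all but CEMIP did not pass the summed-error test, where the adjusted p-values of the other 13 genes lowered by a6 ran from 0.097 to 0.73 in the z test.

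Since the labels tie a6 to G4s, the 250 bases before the annotated starts of the called genes were searched for a G4 motif: 4 or more runs of 3 or more G (GGG) with 1 to 7 bases between runs, on both strands, so that CCC runs count too. The promoters come from RefSeq on GRCh38.p14, and the start used in these cells was not measured. Of all 35116 windows of this length in the RefSeq table, 23.5% hold the motif, and 26.3% of its genes hold it in at least 1 window. Of the 10451 genes in both tables with a promoter there, 39.6% hold it. Of the 9 genes higher with a6, 8 had a promoter in the table and 6 held the motif in at least 1 window. Of the 30 lower, 22 had a promoter and 11 held it. The 8 genes had 15 windows and the 22 had 24, and a gene with more annotated starts has more windows in which to hold the motif. The median GC content of the windows was 66% for the genes higher, 58.6% for the genes lower and 64.8% for the genes in both tables. The match covered 68.5% of the genes in both tables, under the 80% needed, so the share among called genes is not compared with other genes. A match is a description of letters, and folding was not measured. To show what such promoters look like, 1 with and 1 without a motif are printed for each direction, on the gene's strand with the motif in capitals.

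SYDE1 (higher with a6, chr19:15107151-15107400, plus strand): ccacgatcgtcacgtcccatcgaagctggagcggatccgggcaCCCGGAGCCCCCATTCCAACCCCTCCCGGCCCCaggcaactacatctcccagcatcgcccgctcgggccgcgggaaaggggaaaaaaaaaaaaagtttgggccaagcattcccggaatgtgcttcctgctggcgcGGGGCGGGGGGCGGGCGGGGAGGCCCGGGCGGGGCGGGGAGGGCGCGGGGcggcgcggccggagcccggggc
ESPL1 (higher with a6, chr12:53268049-53268298, plus strand): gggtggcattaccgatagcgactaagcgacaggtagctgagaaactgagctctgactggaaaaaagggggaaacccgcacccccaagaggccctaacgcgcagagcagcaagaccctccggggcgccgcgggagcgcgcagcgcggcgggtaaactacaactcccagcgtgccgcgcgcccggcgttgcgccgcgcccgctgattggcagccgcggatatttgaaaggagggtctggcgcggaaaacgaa
C1orf116 (lower with a6, chr1:207032757-207033006, minus strand): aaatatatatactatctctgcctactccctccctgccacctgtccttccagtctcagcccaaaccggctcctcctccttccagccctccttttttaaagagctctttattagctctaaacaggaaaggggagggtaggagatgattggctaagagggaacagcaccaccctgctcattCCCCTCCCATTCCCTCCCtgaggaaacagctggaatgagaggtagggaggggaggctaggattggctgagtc
CPA4 (lower with a6, chr7:130292911-130293160, plus strand): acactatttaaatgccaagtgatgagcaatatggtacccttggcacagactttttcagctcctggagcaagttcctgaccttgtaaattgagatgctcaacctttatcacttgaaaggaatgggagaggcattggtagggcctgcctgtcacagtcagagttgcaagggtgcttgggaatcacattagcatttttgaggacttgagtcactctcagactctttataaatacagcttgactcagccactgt

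In these 4 windows the motif lies in SYDE1 as a C-rich stretch of 33 bases and a G-rich stretch of 50 bases, and in C1orf116 as a C-rich stretch of 18 bases. ESPL1 and CPA4 hold none. The CPA4 promoter had a GC content of 44.4% and that of SYDE1 72.4%.

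Genes of the cell cycle and mitosis lay higher with a6 than with SAHA almost throughout. Of the 42 listed genes measured, 41 had a difference above 0, against 7787 of all 15255 genes (51.0%), and the median difference was 0.90 against 0.01 over all genes. The median log2 fold change of the list was -1.01 in the authors' deposited SAHA table and -0.04 in the authors' deposited a6 table. In the shared-control test 21 members (50% of the list, against 1.56% of all genes) were higher with a6 and 0 lower, in the rescaled test 10 and 0, and in the summed-error test 2 and 0, ESPL1 and CDCA8. The one member below 0 was CCNE2, a G1/S cyclin, with an interval from -1.80 to 1.58. Such lower levels can come from fewer cells in division or less RNA per cell, and bulk RNA cannot tell these apart.

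The members called in the shared-control test span the path into and out of mitosis. FOXM1, the transcription factor that drives G2/M genes, had levels of 2681 in Ctrl, 1047 with SAHA and 2601 with a6. The mitotic kinase PLK1 stood at 3048, 1212 and 2766, and Aurora kinase B (AURKB) at 1963, 776 and 1823. Cyclin B1 (CCNB1), the partner of CDK1, stood at 3478, 1777 and 3773. CDC20, which activates the anaphase-promoting complex, stood at 6236, 2738 and 5553, and its partner enzyme UBE2C at 3166, 1375 and 3147. In these 6 genes the SAHA level was the low one, and all 6 passed as lowered in the authors' deposited SAHA table. Their adjusted p in the summed-error z test ran from 0.053 for FOXM1 to 0.36 for CDC20, so their calls in the shared-control test rest on the treatment of the shared Ctrl error. In the rescaled test FOXM1, PLK1, CCNB1 and UBE2C were called, and AURKB and CDC20 were not. The proliferation marker MKI67 stood at 2740, 1119 and 1976 and was called in neither test.

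DNA replication genes followed with smaller differences. Of 42 measured, 39 lay above 0 (92.9%, against 51.0% of all genes), with a median of 0.45. In the shared-control test 6 were higher with a6 (14.3%, against 1.56% of all genes), in the rescaled test 1 (TYMS) and in the summed-error test 0. TYMS, which makes thymidylate for DNA, had levels of 3489 in Ctrl, 1316 with SAHA and 2940 with a6. Its difference was 1.16 with a standard error of 0.34, with an adjusted p of 0.11 in the summed-error z test and 2.19e-04 in the shared-control z test. The others were MCM7 of the replicative helicase, at 7308, 3986 and 7731, its loader CDT1, its activators CDC45 and GINS2, and POLE, the catalytic subunit of polymerase epsilon. Among 34 genes of homologous recombination and the Fanconi pathway, RAD54L and FANCA were the members called in the shared-control test. Both were higher with a6 (5.88% of the list, against 1.56% of all genes), and the median difference was 0.30.

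Calls among genes tied to G4s depended on the test. Of 32 helicases and proteins that bind or unwind G4s, 0 were called in the summed-error test, in which 0.256% of all genes were called, and 0 in the rescaled test. In the shared-control test 3 were higher with a6 (9.38%, against 1.56% of all genes): the helicases PIF1 and RECQL4 and the zinc finger factor MAZ. PIF1 had levels of 363 in Ctrl, 135 with SAHA and 290 with a6. The median difference was 0.22, from medians of -0.28 with SAHA and -0.07 with a6 in the authors' deposited tables. Of 26 genes listed as oncogenes with promoter G4s, 1 was higher with a6 in the shared-control and rescaled tests, and 0 were called in the summed-error test. This gene was TYMS, the thymidylate enzyme already counted in the DNA replication list. In the shared-control test it makes up 3.85% of the list, against 1.56% of all genes. The median difference of the 26 genes was 0.05, near that of all genes.

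Of single G4-linked genes, MYC had levels of 4341 in Ctrl, 5223 with SAHA and 3442 with a6. Its difference was -0.60 with a 95% interval from -1.48 to 0.28. BCL2, an inhibitor of apoptosis, had a difference of 0.02 (-0.93 to 0.97), and VEGFA, a growth factor of blood vessels, one of 0.12 (-0.78 to 1.03). For TERT, the catalytic subunit of telomerase, the levels were 106, 36.8 and 81.1. Its difference of 1.14 had an adjusted p of 0.83 in the summed-error z test and 0.079 in the shared-control z test. The interval of BCL2 lay within 2-fold either way. Those of MYC and VEGFA include 0 and reach past a 2-fold difference on one side, so these data do not show that both compounds acted alike on these 2 genes.

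**Figure D3:**
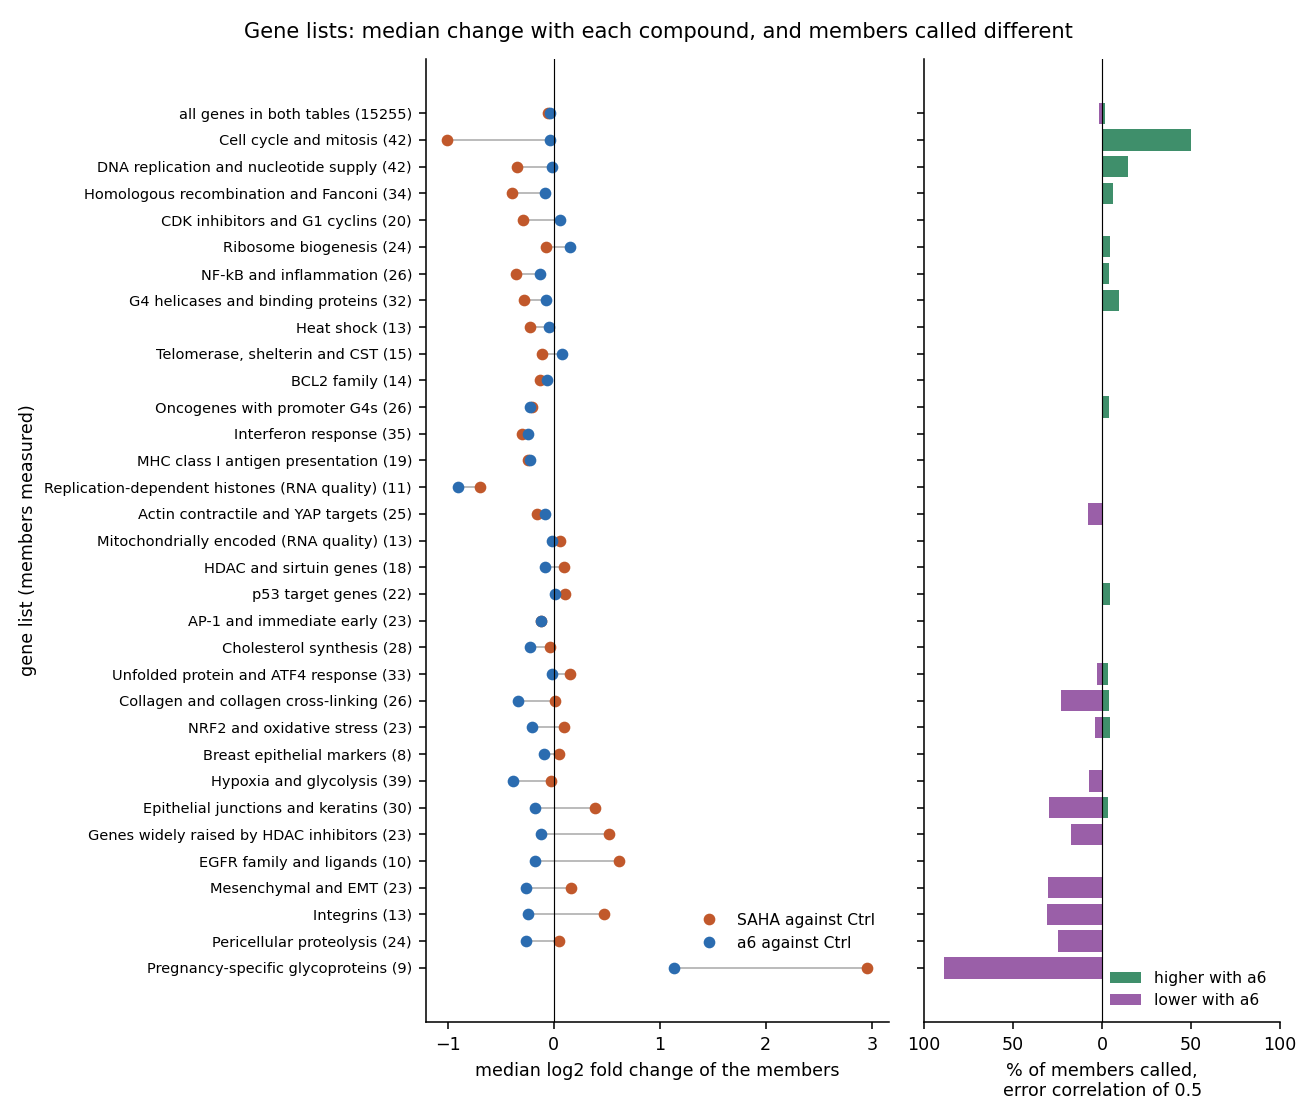
Left, median log2 fold change against Ctrl of the measured members of each gene list in the authors' deposited tables (horizontal axis), orange for SAHA and blue for a6, with the number of members in brackets. Right, percentage of members called in the shared-control test, higher with a6 to the right and lower to the left. The cell cycle list stands at -1.01 and -0.04 with 50% of members higher, and the pregnancy-specific glycoproteins at 2.96 and 1.14 with 88.9% lower.

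Pregnancy-specific glycoproteins (PSGs), secreted proteins of the placenta that lie in 1 cluster on chromosome 19, had a difference below 0 in every member measured. Of 9 members, 2 were called in the summed-error test, PSG5 and PSG9, 8 in the shared-control test, with PSG2 as the exception, and 4 in the rescaled test. Among all genes, 0.197% were lower in the summed-error test and 1.98% in the shared-control test. All 9 passed as raised in the authors' deposited SAHA table and 0 in the authors' deposited a6 table, with medians of 2.96 and 1.14. PSG4 had levels of 179 in Ctrl, 772 with SAHA and 311 with a6. PSG5 stood at 70.4, 507 and 128, and PSG9 at 35.4, 432 and 79.4. In PSG4, PSG5 and PSG9 the a6 level lay between Ctrl and SAHA. The genes are near-identical copies, so how reads were divided among them is uncertain, and 9 members are not 9 independent measurements.

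Epithelial genes called lower with a6 than with SAHA had a6 levels mostly below Ctrl, but these falls did not pass against Ctrl. Of 30 junction and keratin genes, SAHA raised 8 and lowered 2 in the authors' deposited tables, and a6 raised 1 and lowered 0. The log2 fold change with a6 was -0.67 for PPL (DESeq2 adjusted p = 0.53) and -0.23 for KRT81 (DESeq2 adjusted p = 0.98). Of the 30, 3 were lower with a6 than with SAHA in the summed-error test (AQP3, KRT81 and PPL). In the shared-control test 9 were lower (30%, against 1.98% of all genes) and 1 higher, and in the rescaled test 5 and 0. PPL, a plakin that links keratin to desmosomes, had levels of 348 in Ctrl, 704 with SAHA and 218 with a6. The tight junction protein CLDN1 stood at 85.1, 298 and 105, and KRT15, a keratin of basal cells, at 75.1, 296 and 68.3. KRT81 stood at 707, 2734 and 602 and its near-identical neighbour KRT86, which overlaps it in the annotation, at 63.6, 150 and 24.4, so their reads may be split wrongly. The one member higher with a6 was EVPL, another plakin, at 1611, 801 and 1450. Outside the list, RAB17, a GTPase of polarised epithelial cells, was also called in the summed-error test, at 45.3, 145 and 19.1. CGN, the tight junction protein cingulin, was raised by both compounds in the authors' deposited tables and stood at 81.8, 890 and 410, with a difference of -1.12 (-2.13 to -0.11) that neither test called.

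Genes lower with a6 also came from adhesion, proteolysis and matrix. All 13 integrin subunits measured had a difference below 0, with a median of -0.61, and 4 were called lower in the shared-control test (30.8%, against 1.98% of all genes). In the summed-error and rescaled tests 0 were called. ITGB3, the subunit of the vitronectin receptor, had levels of 115.6 in Ctrl, 238 with SAHA and 84.4 with a6. ITGA2, a collagen receptor subunit, stood at 437, 707 and 298, and ITGA6, a laminin receptor subunit, at 2707, 3812 and 1956. For ITGA2 and ITGA6 the change with either compound alone did not pass in the authors' deposited tables. The fourth was ITGA1, at 87.8, 250 and 82.2.

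Of 24 genes of pericellular proteolysis, 1 was lower with a6 in the summed-error test, CPA4, 6 in the shared-control test (25%, against 1.98% of all genes) and 2 in the rescaled test. PLAT, the tissue plasminogen activator, had levels of 2730 in Ctrl, 6478 with SAHA and 2368 with a6. The interstitial collagenase MMP1 stood at 448, 1250 and 517, and MMP15, a membrane-bound metalloproteinase, at 986, 1445 and 564. The called members also include TIMP2, an inhibitor of metalloproteinases. Of 23 mesenchymal genes, 1 was lower in the summed-error test, TNC, 7 in the shared-control test (30.4%) and 2 in the rescaled test. The 7 include SNAI2, a repressor of E-cadherin, at 188, 330 and 151, and INHBA, which encodes a subunit of activin, at 105, 346 and 124. VIM, the mesenchymal filament protein vimentin, had a difference of 0.04 and was called in neither. Genes lower with a6 thus came from the epithelial and from the mesenchymal list. Of 26 collagen and cross-linking genes, 6 were lower (23.1%) and 1 higher (3.85%, against 1.56% of all genes) in the shared-control test, and 2 lower and 0 higher in the rescaled test. Among them the lysine hydroxylase PLOD2 stood at 542, 1173 and 451, and the collagen chaperone SERPINH1, the member higher with a6, at 5270, 1892 and 3865.

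Known targets of HDAC inhibition lay mostly lower with a6 than with SAHA, though most did not pass with SAHA either. Of 31 listed, 23 were in both tables and 3 in the SAHA table only. Of the 23, SAHA raised 6 and lowered 2 in the authors' deposited table, and 0 passed with a6. Of 23 genes widely raised by HDAC inhibitors, 18 lay below 0 and the median difference was -0.56 (medians of 0.52 with SAHA and -0.12 with a6 in the authors' deposited tables). CPA4 was called in the summed-error test, and CPA4, the metallothionein MT1X, the chaperone CLU and the matricellular CCN2 in the shared-control test (17.4%, against 1.98% of all genes), and 2 were called in the rescaled test. CLU had levels of 1089 in Ctrl, 2298 with SAHA and 883 with a6. CDKN1A, the cell cycle inhibitor p21, had levels of 1929, 4609 and 3220. It was raised by SAHA in the authors' deposited table (DESeq2 adjusted p = 0.0067), while the a6 change of 0.74 there did not pass (DESeq2 adjusted p = 0.44). The difference of -0.52 (-1.42 to 0.38) was called in neither test, so CDKN1A is not shown to differ. Among 18 HDAC and sirtuin genes, 0 were called in either test, with differences from -0.68 to 0.62.

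Hypoxia and glycolysis genes had a median difference of -0.37 over 39 measured, with 3 lower in the shared-control test (7.69%, against 1.98% of all genes), 2 in the rescaled test and 0 in the summed-error test. EGLN3, an oxygen-sensing prolyl hydroxylase, had levels of 82.9 in Ctrl, 216 with SAHA and 60.8 with a6, and the carbonic anhydrase CA12 stood at 274, 402 and 134. ALDOC, an aldolase, stood at 231, 176 and 63.0. CA9, a carbonic anhydrase lowered by both compounds in the authors' deposited tables, stood at 512, 145 and 75.4, with a difference of -0.94 (-2.15 to 0.26). TAGLN, an actin-binding protein lowered by both, had a difference of -0.28 (-1.11 to 0.56). Of 2 interferon-induced genes, IFI6, raised by both, had a difference of -0.58 (-1.53 to 0.38), and OASL, lowered by both, one of 0.32 (-0.58 to 1.22). None of these 4 was called.

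Markers of other cell types were few among the genes in both tables: 4 endothelial, 2 haematopoietic and 5 fibroblast genes. The endothelial KDR had levels of 41.7 in Ctrl, 123 with SAHA and 45.7 with a6, and the monocyte marker CD14 stood at 28.3, 99.3 and 18.9. Both were lower with a6 in the shared-control test, as were PI16 and COL1A2 of the fibroblast list. Of the genes in both tables, 1 endothelial, 1 haematopoietic and 0 fibroblast genes passed as raised in the authors' deposited SAHA table. Other members moved in both directions with SAHA without passing. The endothelial ESAM had log2 fold changes of 0.22 with SAHA and 0.12 with a6. The endothelial ENG had log2 fold changes of -0.49 with SAHA and -0.16 with a6, and the haematopoietic CSF1R -0.36 and -1.19. Summed over the listed members in both tables, the endothelial level was 1816, 2173 and 1957, the haematopoietic level 102, 157 and 51.3 and the fibroblast level 773, 960 and 607 normalized counts in Ctrl, with SAHA and with a6. Most of the endothelial sum came from ESAM, with a mean count of 1831 in the SAHA table. PECAM1 of endothelial and PTPRC of blood cells were not in the a6 table. In all, 3 endothelial, 2 haematopoietic and 1 fibroblast markers were in the SAHA table only. Of these, the endothelial VWF passed as raised there, from a Ctrl level of 1.41 to 23.0 with SAHA. The fibroblast marker LUM also passed, from 0.378 to 49.3, and neither has an a6 value. The part of such markers in the other results was not tested. Of 13 mitochondrially encoded transcripts and 11 replication-dependent histone genes, which can follow RNA quality, 0 were called in either test, with median differences of -0.07 and -0.06. Over the 5 histone genes whose mean count reached 50 in both tables, the median was -0.43.

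The difference moved with GC content. GENCODE 29 gave a GC content for the longest transcript of 96.4% of the genes. In 10 equal groups of these genes ordered by GC, the median difference went from -0.20 at a median GC of 37.1% to 0.24 at 64.4%. The medians in the authors' deposited SAHA table went from 0.04 to -0.28 over these groups, and those in the authors' deposited a6 table from -0.12 to -0.05. The median GC content was 55.8% for the 9 genes higher with a6, 50.7% for the 30 lower and 49.2% for all. With the trend on GC removed, 6 genes were higher and 41 lower, 36 of them shared with the main test. JADE2, SOGA1 and WTIP were no longer called, with adjusted p-values from 0.054 to 0.079 in the z test. The median difference of the cell cycle list was then 0.86, and that of the PSGs -1.99. The part of GC content in the other results was not tested.

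**Figure D4:**
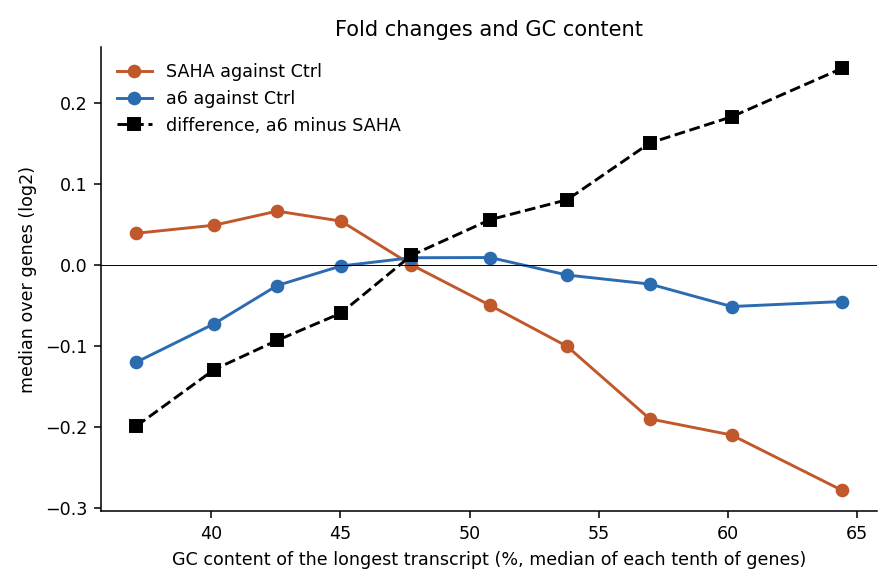
Median log2 fold change against Ctrl in the authors' deposited tables, orange for SAHA and blue for a6, and median difference between them (black, dashed), in 10 equal groups of genes ordered by the GC content of their longest transcript (horizontal axis, %). The difference goes from -0.20 to 0.24, and the SAHA median from 0.04 to -0.28.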

How the data were processed

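RNA from MDA-MB-231 cells (3 Ctrl, 3 SAHA and 3 a6 libraries) was sequenced by the authors. Cutadapt and DESeq2 were used with GRCh38 (hg38), per the submitters' processing notes. For the aligner, the read counter, strand use and versions: not given in the sources used here. Per the file headers, the deposited tables give for each gene a mean normalized count (a signal) over the libraries compared and a log2 fold change and its error. They further give the deposited Wald statistic, which is a score, with its p-value before and after adjustment. No values per library were used (0 columns), so depth per library is unknown and only the standard errors carry the precision.

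Genes were joined by symbol. The Ctrl level is 2 times the mean count over 1 plus the fold change in the SAHA table, and the SAHA and a6 levels are that level times each fold change, for groups of equal size. The difference and its tests (Python 3.11.15, scipy 1.17.1, statsmodels 0.14.6) are described with the results, and were tested on simulated data. Gene lists (38) are described by counts and medians, with no set test. The lowest mean count was 9.31 in the a6 table and 2.44 in the SAHA table.

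Named genes are called genes with the 15 highest and 15 lowest statistics, a mean count of at least 50 in both tables and a symbol that is not a clone, LINC, antisense or small RNA name. In each list up to 2 called members per direction are added, and CDKN1A, MYC, BCL2, TERT, VEGFA, TYMS, CPA4, TAGLN, CA9, CGN, IFI6, OASL, AQP3 and TNC whatever their values. Genes named from the shared-control test, and those outside these rules, were chosen after their values were seen. Some genes that these rules take are counted but not named here. The comparison and the lists were chosen with earlier results of these data known. GENCODE 29 on GRCh38 gave positions and GC content. Alternatives were the error correlation, a 2-fold limit, an adjusted p under 0.01, a mean count of at least 50, centring, removal of a lowess trend on GC content, division of the statistic by its robust spread and, added after seeing the data, removal of an estimated Ctrl part of the variance and the rescaled shared-control test.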

Additional observations from a re-analysis of the deposited data

How the results depend on the processing

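How the error of the shared Ctrl libraries is treated moved the counts most. The main 9 genes higher and 30 lower with a6 became 238 and 302 with an error correlation of 0.5, and 257 and 323 with an estimated Ctrl part of the variance taken out, an alternative chosen after seeing the data. Dividing the statistic by its robust spread, which was 0.899, gave 40 and 78, dividing that of the shared-control test by its own spread of 1.26 gave 37 and 77, and an adjusted p under 0.01 gave 2 and 14. A 2-fold limit and centring on the median both gave 9 and 30, a mean count of at least 50 gave 9 and 22, and removal of the GC trend 6 and 41. The share of calls that were higher with a6 was 23.1% in the main test, 44.1% with the error correlation, 44.3% with the Ctrl part taken out, 33.9% and 32.5% over the robust spreads, 12.5% at an adjusted p under 0.01 and 12.8% with the GC trend removed. No difference of a gene named by rule changed direction under any of these. The median of the interferon list went from 0.04 to -0.01 with the GC trend removed, and that of the endothelial list from -0.40 to 0.11 with a mean count of at least 50, where the median of the replication-dependent histones, which kept 5 of 11 members, moved from -0.06 to -0.43. No paired analysis was possible because the tables give no values per library, and leaving out single libraries was not run for the same reason. A second motif with loops to 12 bases, and the 2-fold limit, were not compared for promoters, because too few genes had a promoter sequence. The median standard error of the difference was 0.457, and no difference under 2-fold was called in the main test.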

Other observations

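The comparison leaves out 3279 genes that are in the SAHA table and not in the a6 table. Of these, 248 (7.56%) were raised and 3 lowered in the authors' deposited SAHA table, with no fold limit. They had low levels: their mean count in the authors' deposited table had a median of 5.02 and a maximum of 87.7, and their highest Ctrl level was 15.1. All 13953 genes of the SAHA table with a Ctrl level of at least 18.6, which is 2 times the lowest mean count of the a6 table, are in the a6 table. With SAHA, 220 of the missing genes had a level above that value.

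Of 24 listed neuronal genes, 7 are in the SAHA table only, and MAP2, SCG2 and SYP passed there as raised. MAP2, a microtubule protein of dendrites, went from a Ctrl level of 7.48 to 168 with SAHA. SCG2, a secretory granule protein, went from 4.15 to 158, and SYP, a synaptic vesicle protein, from 3.84 to 45.3. Of the 5 neuronal genes in both tables, SAHA raised 2 and a6 raised 1. Their summed level was 1647 in Ctrl, 1375 with SAHA and 941 with a6. The missing genes raised by SAHA also include SERPINB2, an inhibitor of plasminogen activators, from 4.11 to 53.3, and the stromelysin MMP3, from 1.37 to 30.5. DHRS2, a dehydrogenase known to respond to HDAC inhibitors, went from 1.37 to 25.7. Genes near 0 in Ctrl entered the SAHA table only if their count was higher with SAHA, so these values are a description. The lowest mean count in the a6 table was 9.31. If genes under it were left out, the a6 level would lie under about 11.1 for MAP2 and 14.5 for SCG2. For weaker genes such a limit does not separate the compounds, as for LGI3, at 17.6 with SAHA against a limit of 18.4. Why these genes are not in the a6 table was not tested, and such genes, chosen here after their values were seen, are not among those counted as lower with a6.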
